A study of Mus musculus with 12 samples.

Results

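Mammary tumors of mice that had been injected with DMSO, the solvent used for the compound C646, were compared with mammary tumors of untreated mice. Both groups came from 12-week-old female MMTV-PyVT mice on the FVB background, which carry the polyoma virus middle T oncogene under a promoter that is active mainly in mammary epithelium. Each group held 3 tumors from separate mice, so the comparison used 6 of the 12 RNA-seq samples of the study. The untreated tumors had grown in the thoracic mammary gland, while for the DMSO group the methods give the biggest tumor of each mouse. The treatment label of the DMSO tumors carries 1 mg/kg, the same dose as the label of the C646 tumors. The other 6 samples, 3 of normal mammary gland from wild-type FVB mice and 3 of tumors from C646-injected MMTV-PyVT mice, are given only as values set beside these. The gland of origin of the DMSO tumors is not given in the sources used here. Treatment and the stated way of choosing a tumor differed together between the groups, and so did the set of files, so these cannot be told apart.

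The 2 sets of files were not built on the same gene models. Those of normal glands and untreated tumors listed 26220 rows each, against 24304 in those of the DMSO-injected and C646-injected mice. A total of 23301 gene names occurred in both sets, and these were the members of the comparison. Expression was given as FPKM, the fragments of a gene per kilobase of its length, scaled to the number of mapped fragments. Of these names, 11857 reached 1 FPKM in at least 3 of the 6 tumors and were tested. Levels below are log2(FPKM + 0.03125), and every difference is DMSO minus untreated on that log2 scale, or a ratio of mean FPKM where it is called a fold. The number of reads was not in the files.

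A mammary gland is a tree of milk-producing luminal and contractile myoepithelial cells set in a pad of white fat. In the thoracic region the pad lies against the chest wall and its skeletal muscle, and brown fat is found near the shoulder. A piece of tumor can therefore carry adipocytes, muscle fibers, vessels and immune cells beside the tumor cells, and their messenger RNA is read in the same library. In such bulk samples fewer cells of a type and less RNA per cell cannot be told apart. The epithelial label was borne out in all 6 tumors by the luminal keratin Krt8, at 678, 502 and 605 FPKM in untreated tumors 1 to 3 and 849, 867 and 874 FPKM in DMSO tumors 1 to 3. Krt18, its partner keratin, was at 1044, 708 and 768 FPKM and 803, 772 and 839 FPKM in the same order. None of 22 luminal genes tested passed the threshold, and their median difference was 0.14, beside 0.15 over all genes tested.

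In total, 892 genes were higher in DMSO tumors (7.52% of those tested) and 330 were lower (2.78%) at an adjusted p under 0.05 by limma with Benjamini-Hochberg adjustment. The values of both groups did not overlap in 3191 genes with DMSO above (26.9%) and 1277 genes with DMSO below (10.8%). The median of all tested genes lay 0.15 above 0, and 60.1% of them had a difference above 0. Scaling the libraries to a common median ratio removed that shift, moved the median to -0.02 and gave 357 higher (3.01%) and 452 lower genes (3.81%), so the share of calls that were higher was 73.0% without the scaling and 44.1% with it. The direction of the excess of calls thus depended on the scaling, and small differences are given below also relative to the median of all genes. Library sums differed as well, with 625568 to 783719 FPKM in the untreated tumors and 553988 to 638606 FPKM in the DMSO tumors. DMSO tumor 3 stood apart from the others of its group. Across genes, its levels correlated with those of DMSO tumors 1 and 2 at 0.882 and 0.904, and with those of untreated tumors 1 to 3 at 0.883, 0.924 and 0.909. It differed from DMSO tumors 1 and 2 in muscle and epidermal genes among others. Without it, 1152 genes were higher and 507 lower (4.28%), and muscle and epidermal results are given with and without it.

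The gene lists with the largest differences between the groups were those of skeletal muscle. Of 25 tested genes for the contractile apparatus 12 were lower in DMSO tumors and none higher, and of 23 genes for muscle calcium handling and energy 11 were lower and none higher. The median differences of these lists were -5.85 and -5.31, and in 21 and 20 of the genes every DMSO tumor lay below every untreated tumor. Over all genes tested, 2.78% were lower and 7.52% higher, and 10.8% had every DMSO tumor below every untreated tumor. Muscle genes were abundant in all 3 untreated tumors, nearly absent from DMSO tumors 1 and 2, and present at a lower level in DMSO tumor 3.

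Striated muscle contracts when myosin heads pull on actin filaments, and the troponin complex makes this depend on calcium. Acta1, the actin of skeletal muscle, stood at 1289, 1261 and 606 FPKM in untreated tumors 1 to 3 and at 0, 0.459 and 178 FPKM in DMSO tumors 1 to 3. The difference was -9.48 ± 2.79 (SE), and with its wide spread inside the DMSO group it did not pass the threshold (adjusted p = 0.0716). Without DMSO tumor 3 the adjusted p was 0.00396. Ckm, the creatine kinase that buffers ATP in muscle, stood at 1416, 469 and 383 FPKM in the untreated tumors and at 0.345, 0.475 and 42.9 FPKM in the DMSO tumors. Its mean was 51.9-fold lower in DMSO tumors, with an adjusted p of 0.0342. Both genes followed the same order of tumors, with DMSO tumor 3 well above DMSO tumors 1 and 2 and below the untreated tumors.

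The promoters of these 2 genes are shown because Acta1 and Ckm had the highest mean FPKM of the muscle genes in untreated tumors, and because the muscle genes moved together. Each window runs from 250 bases before to 50 after the annotated start (RefSeq, build GRCm38.p6), and is printed 5′ to 3′ along the strand of the gene. Capitals mark CAGCTG, the E-box core that MyoD-type muscle regulators bind, and the TATA-type motif TATAAA, both searched on either strand.
Acta1, chr8:123894726-123895025, minus strand: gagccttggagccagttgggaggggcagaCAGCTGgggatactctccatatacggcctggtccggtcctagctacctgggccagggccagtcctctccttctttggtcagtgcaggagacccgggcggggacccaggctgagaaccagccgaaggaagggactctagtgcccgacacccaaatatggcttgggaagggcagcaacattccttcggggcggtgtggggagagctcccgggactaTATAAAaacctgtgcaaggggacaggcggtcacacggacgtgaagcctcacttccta
Ckm, chr7:19410844-19411143, plus strand: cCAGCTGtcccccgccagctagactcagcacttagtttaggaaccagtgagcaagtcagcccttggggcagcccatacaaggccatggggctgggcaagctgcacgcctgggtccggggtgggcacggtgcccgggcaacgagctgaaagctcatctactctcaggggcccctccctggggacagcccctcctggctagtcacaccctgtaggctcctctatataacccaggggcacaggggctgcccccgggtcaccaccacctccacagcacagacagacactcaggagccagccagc
CAGCTG reads the same on both strands, and the motifs shared no bases. Of the 23 muscle genes lower in DMSO tumors 15 had a RefSeq window, Ckm among them, and CAGCTG was found in 12 of the 15, against 16.3% of all 32851 windows. TATAAA was found in 1 of the 15, against 13.6% of all windows. These counts describe letters in a window and no binding.

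Fast fiber proteins led the contractile list. Tnnc2, the calcium-binding troponin of fast fibers, was at 1279, 511 and 307 FPKM in untreated tumors and at 0, 0 and 99.1 FPKM in DMSO tumors (difference -10.32, adjusted p = 0.0678). Tnnt3, the fast troponin that anchors the complex to tropomyosin, was at 1038, 369 and 326 FPKM and 0, 0 and 53.7 FPKM (difference -10.38, adjusted p = 0.0561). Tnni2, the inhibitory fast troponin, was at 709, 282 and 258 FPKM and 1.70, 0.801 and 44.9 FPKM, and its difference of -6.53 passed the threshold (adjusted p = 0.0351). For all 3 troponins the groups did not overlap, and DMSO tumor 3 held nearly all of the signal in its group. Mylpf, the regulatory light chain of fast myosin, fell from 364 ± 171 FPKM (SD, n = 3) to 18.6 ± 31.2 FPKM (adjusted p = 0.0474). Actn3, the alpha-actinin of fast fibers, was at 64.7, 35.7 and 23.1 FPKM in untreated tumors and at 0, 0 and 3.58 FPKM in DMSO tumors (adjusted p = 0.0389).

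The myosin heavy chains, each of which marks a fiber type, were mostly of the fast kinds. Myh4, of the fastest glycolytic fibers, was at 115, 62.3 and 49.2 FPKM in untreated tumors and at 0.0314, 0 and 4.98 FPKM in DMSO tumors, a 45.2-fold lower mean (adjusted p = 0.0349). Myh1, of the intermediate fast type, was at 20.5, 24.2 and 10.5 FPKM and 0, 0 and 12.98 FPKM, so that DMSO tumor 3 lay above untreated tumor 3 and the groups overlapped (adjusted p = 0.111). Myh2, of fast oxidative fibers, was at 6.09, 10.3 and 2.45 FPKM and 0.0316, 0 and 1.67 FPKM (adjusted p = 0.0663). The slow fiber myosin Myh7 stayed under 1 FPKM in all 6 tumors and was not tested. The share of Myh1 relative to Myh4 thus differed between DMSO tumor 3, where Myh1 was the higher, and the untreated tumors, where Myh4 was.

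Muscle raises its cytosolic calcium from an internal store and pumps it back. Ryr1, the release channel of that store, was at 59.2, 24.1 and 27.8 FPKM in untreated tumors and at 0.0146, 0.0267 and 0.673 FPKM in DMSO tumors. Its difference of -8.11 ± 1.03 had the lowest adjusted p of both muscle lists (0.0100), and DMSO tumor 3 stayed under 1 FPKM for this gene. Atp2a1, the calcium pump of fast fibers, was at 203, 87.6 and 123 FPKM and 0.178, 0.458 and 31.6 FPKM (adjusted p = 0.0570). Pvalb, the calcium buffer of fast fibers, was at 537, 142 and 112 FPKM and 0, 0 and 27.1 FPKM (adjusted p = 0.0572). The store protein Casq1 and the voltage sensor Cacna1s both fell, with adjusted p of 0.0473 and 0.0338. Among the enzymes that feed contraction, Pygm, the muscle glycogen phosphorylase, fell 17.6-fold and Eno3, the muscle enolase, 8.71-fold (adjusted p = 0.0376 and 0.0399). Cox6a2, a muscle subunit of cytochrome oxidase, was at 101, 40.6 and 42.2 FPKM and 0, 0 and 5.77 FPKM (adjusted p = 0.0435).

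**Figure D1:**
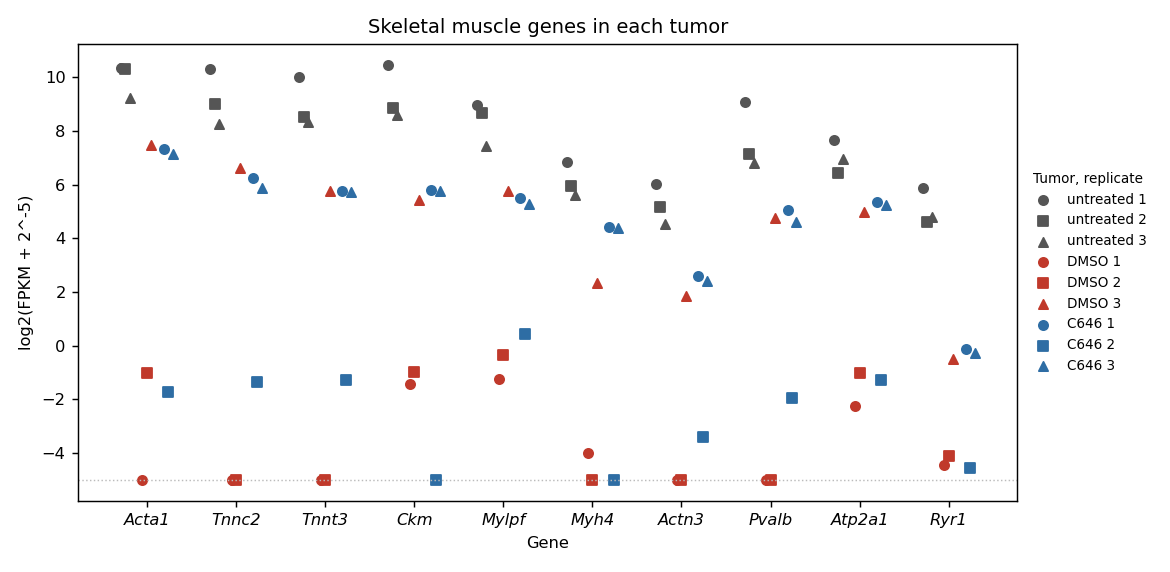
Level of 10 skeletal muscle genes in each tumor, as log2(FPKM + 0.03125) on the vertical axis, with color for the group and marker shape for the replicate; the dotted line marks 0 FPKM. Untreated tumors lie above all DMSO tumors for every gene. Within the DMSO group, tumors 1 and 2 lie lowest, many on the line, and DMSO tumor 3 lies between them and the untreated tumors. The C646 tumors are drawn beside these groups.

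The 55 muscle genes found, those of both lists, made up 1.33, 0.800 and 0.591% of the FPKM sum in untreated tumors 1 to 3. In DMSO tumors 1 to 3 they made up 0.0748, 0.0580 and 0.182%. Not all of this signal is particular to muscle. Of the 274 and 212 FPKM summed over the contractile list in DMSO tumors 1 and 2, Tpm1 held 248 and 173 FPKM. Cox7a1 and Cox8b stood on the brown fat list as well, at 148 and 274 FPKM in untreated tumor 1. Counting genes rather than signal, 49, 50 and 49 of the 55 reached 1 FPKM in the untreated tumors, against 12, 10 and 43 in the DMSO tumors. In DMSO tumors 1 and 2, 22 and 24 of the 55 genes were listed at 0. The C646 tumors, from the same set of files as the DMSO tumors, held 0.200, 0.0636 and 0.182%, so 1 of the 3 was as low as DMSO tumors 1 and 2. Mean levels of the contractile list were 4.09, 4.29 and 3.82 in the untreated, -2.84, -2.70 and 2.13 in the DMSO and 1.72, -2.22 and 1.85 in the C646 tumors. Those of the calcium handling and energy list were 4.86, 3.91 and 3.60 in the untreated, -1.30, -1.51 and 2.07 in the DMSO and 2.09, -1.47 and 1.96 in the C646 tumors. Within the DMSO and the C646 group both lists spread over more log2 units than within the untreated group.

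The calls depended on which library was left out. Without DMSO tumor 3, 40 of the 48 tested muscle genes were lower, beside 4.28% of all genes, and their median difference was -7.15. Leaving out DMSO tumor 1 or 2 left 2 or 1 muscle genes called, beside 0.793% and 0.531% of all genes. Leaving out untreated tumor 1, 2 or 3 left 0, 1 or 1, beside 0.548%, 0.767% and 0.472%. In each of these fits 47 of the 48 genes had a difference below 0, the exception being Amd1, an enzyme of polyamine synthesis found in all cells. With a constant of 1 FPKM in place of 0.03125, 35 of the 48 were lower (3.22% of all genes) and the median difference was -3.01. Genes that muscle shares with other tissues moved less. Tpm1, a tropomyosin also made outside muscle, was at 518, 414 and 304 FPKM in untreated tumors and at 248, 173 and 265 FPKM in DMSO tumors, and Ldb3 and Pfkm, which also have non-muscle forms, overlapped between the groups. The regulators that start and keep the muscle program were low everywhere. Myod1 was at 1.30, 0.297 and 0.363 FPKM in untreated and 0, 0 and 0.105 FPKM in DMSO tumors. Myf5 was listed at 0 in all 6 tumors. Of 12 such regulators found only 2 were tested, and these went in opposite directions without a call. Six4 was at 0.174, 0.593 and 0.419 FPKM in untreated and 2.86, 1.67 and 1.04 FPKM in DMSO tumors. Its difference was 2.17 (adjusted p = 0.0698), and that of Mef2c was -0.795 (adjusted p = 0.167). In both genes the groups did not overlap.

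Fat genes varied widely within both groups. Of 19 white adipocyte genes tested none passed the threshold, although 18 lay below 0 and the median difference was -1.92. Mean levels of the whole list were 5.18, 2.12 and 2.44 in untreated tumors and 0.04, 2.05 and 1.17 in DMSO tumors, so that DMSO tumor 2 came close to untreated tumors 2 and 3 and untreated tumor 1 stood above all others. Adipoq, the hormone adiponectin, was at 58.2, 1.56 and 3.20 FPKM in the untreated tumors and at 0.186, 1.57 and 0 FPKM in the DMSO tumors (adjusted p = 0.111). Fabp4, the fatty acid carrier of adipocytes, was at 1080.2, 81.7 and 82.3 FPKM and 9.76, 36.1 and 45.9 FPKM (adjusted p = 0.118), beside a mean of 15860.5 FPKM in normal gland. Every tumor thus held a small fraction of the level in normal gland. Thrsp, which promotes lipid synthesis in fat and in the lactating gland, was at 937, 1352 and 252 FPKM in untreated tumors and at 108, 315 and 549.9 FPKM in DMSO tumors, with untreated tumor 2 the highest.

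The brown fat protein Ucp1, which uncouples respiration to make heat, was at 33.1, 0 and 1.64 FPKM in untreated tumors and at 0, 0.220 and 0 FPKM in DMSO tumors. It was too low to be tested, and untreated tumor 1 alone stood out. White adipocyte genes made up 0.616, 0.321 and 0.132% of the FPKM sum in the untreated and 0.109, 0.160 and 0.158% in the DMSO tumors. Unlike the muscle share, the fat share of untreated tumor 3 lay within the range of the DMSO tumors. In every tumor except untreated tumor 1, Thrsp and G0s2 held most of the summed FPKM of this list. G0s2 had a mean of 328 FPKM in untreated tumors, 280 FPKM in DMSO tumors and 198 FPKM in normal gland. In 5 of the 19 tested members, Fabp4 among them, every DMSO tumor lay below every untreated tumor, beside 10.8% of all genes. None of 16 fatty acid synthesis genes and none of 23 cholesterol synthesis genes passed the threshold.

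Milk protein genes had a median below 0 without a call. All 3 DMSO tumors lay below all 3 untreated tumors for 5 of the 19 genes tested, beside 10.8% of all genes. The median difference was -1.30 (-1.45 relative to all genes), and none passed the threshold. Mean levels of the list were 7.38, 9.11 and 6.29 in untreated and 5.14, 6.40 and 6.97 in DMSO tumors, so the groups overlapped and untreated tumor 2 was the highest. Without untreated tumor 2 the median difference was -0.71, and without DMSO tumor 1 it was -0.87. Csn3, kappa-casein, was at 9136, 12483 and 15346 FPKM in untreated tumors and at 4656, 6810.4 and 3707 FPKM in DMSO tumors, a difference of -1.30 ± 0.39 (adjusted p = 0.0742). Csn2, beta-casein, was at 580.4, 9504 and 115 FPKM and 16.4, 250.2 and 395 FPKM, with untreated tumor 2 far above the rest (adjusted p = 0.310).

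Among the basal and matrix genes, a few passed the threshold on their own, to be read beside 7.52% higher and 2.78% lower over all genes. Lamb3, the laminin beta chain of epithelial basement membrane, was at 206, 151 and 114 FPKM in untreated tumors and at 19.02, 24.1 and 37.7 FPKM in DMSO tumors, and fell 5.84-fold (adjusted p = 0.00884). The Lamb3 locus overlaps Hsd11b1 and G0s2 on the other strand, which these libraries cannot separate. Lamb3 was the single call among 16 basal and myoepithelial genes. The basal keratin Krt5, at 55.7, 79.4 and 35.7 FPKM and 8.01, 25.6 and 229 FPKM, did not follow it, and was highest in DMSO tumor 3. Mmp12, the macrophage elastase, was at 1.40, 1.81 and 1.63 FPKM in untreated tumors and at 8.75, 3.46 and 7.44 FPKM in DMSO tumors, and rose 4.06-fold (adjusted p = 0.0313). Mmp14, a membrane-bound collagenase, rose 1.79-fold (adjusted p = 0.0430), a call lost under median ratio scaling (0.0701). Col6a3, a chain of microfibrillar collagen, rose 2.25-fold (adjusted p = 0.0263). Col1a1, the main fibrillar collagen, had a difference of -0.02, and of 24 matrix genes Col6a3 was the single call.

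Epidermal genes were set apart in DMSO tumor 3 alone. Krt1, a keratin of the upper layers of skin, was at 0.397, 1.68 and 0.0430 FPKM in untreated tumors and at 0.0851, 0 and 45.4 FPKM in DMSO tumors. Krt10, its partner, was at 4.71, 3.63 and 2.44 FPKM and 1.999, 2.76 and 58.6 FPKM. The hair follicle keratin Krt25 was at 0.0927, 1.48 and 0 FPKM and 0, 0 and 20.8 FPKM. Of 16 epidermal genes found only 3 were tested, and none passed the threshold. Mean levels of the 16 genes were -1.81, -0.38 and -3.00 in untreated and -3.37, -2.73 and 3.47 in DMSO tumors, so the difference of the group means was 0.85 with DMSO tumor 3 and -1.32 without it. Muscle and skin genes were thus both higher in DMSO tumor 3 than in DMSO tumors 1 and 2.

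Macrophage genes split into members that rose and members that did not. Of 20 tested, 4 were higher and none lower, beside 7.52% and 2.78% of all genes, and the median difference was 0.29 (0.15 relative to all genes). Csf1r, the receptor for the macrophage growth factor, was at 11.3, 9.05 and 9.82 FPKM in untreated tumors and at 21.01, 33.9 and 20.7 FPKM in DMSO tumors (difference 1.29, adjusted p = 0.0248). Cd163, a hemoglobin scavenger receptor, was at 0.623, 0.935 and 0.809 FPKM and 3.63, 3.50 and 2.17 FPKM (difference 1.91, adjusted p = 0.0273). Itgam, an integrin of myeloid cells, was at 1.19, 1.27 and 1.02 FPKM and 4.44, 2.85 and 3.94 FPKM (difference 1.65, adjusted p = 0.0238). The complement gene C1qa, at 219, 107 and 139 FPKM and 106, 124 and 107 FPKM, and the lysosomal protein Cd68, at 31.9, 17.8 and 19.4 FPKM and 25.6, 17.8 and 18.6 FPKM, overlapped between the groups.

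The fourth call, the lysozyme Lyz1, was at 15.8, 14.4 and 23.4 FPKM in untreated tumors and at 113, 139 and 125 FPKM in DMSO tumors. Its gene model differed between the sets of files, since the DMSO files joined Lyz1 with its near-identical copy Lyz2 in a further row and the untreated files gave Lyz2 its own. Summed over all Lyz1 and Lyz2 rows, the values were 229, 188 and 214 FPKM and 306, 376 and 304 FPKM. The groups still did not overlap, but the gap was far smaller than for the Lyz1 row.

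Interferon and hypoxia genes varied within both groups and gave almost no calls. None of 24 interferon-stimulated genes passed the threshold, with a median difference of 1.18. Mean levels of this list were 1.44, 2.30 and 3.73 in untreated tumors and 4.98, 1.67 and 4.18 in DMSO tumors, so DMSO tumors 1 and 3 were high, DMSO tumor 2 was low and the groups overlapped. Without DMSO tumor 1 the median difference was 0.52, without untreated tumor 1 it was 0.55, and without DMSO tumor 2 it was 2.13. Isg15, a ubiquitin-like protein induced by interferon, was at 24.4, 56.5 and 100.1 FPKM and 375, 23.8 and 252 FPKM. Irf7, the factor that amplifies the interferon response, was at 48.2, 51.00 and 177 FPKM and 296, 30.2 and 153 FPKM.

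The hypoxia and glycolysis list followed the same order of DMSO tumors, with mean levels of 4.70, 5.46 and 5.03 in untreated and 6.73, 4.81 and 6.19 in DMSO tumors. Of 29 genes 2 were called higher, a share near the 7.52% of all genes, and the median difference was 0.46 (0.31 relative to all genes). It was 0.13 without DMSO tumor 1 and 1.03 without DMSO tumor 2. Vegfa, the growth factor for vessels, was at 12.4, 34.5 and 26.4 FPKM in untreated tumors, at 183, 19.6 and 104 FPKM in DMSO tumors and at 43.8, 23.6 and 22.4 FPKM in C646 tumors. DMSO tumor 2 thus lay inside the range of the untreated tumors, and the difference did not pass the threshold (adjusted p = 0.208). Car9, a carbonic anhydrase induced by low oxygen, was at 7.41, 7.16 and 16.4 FPKM in untreated and 104, 21.99 and 27.7 FPKM in DMSO tumors, without overlap and without a call (adjusted p = 0.0742). The first of the 2 calls was Mxi1, an antagonist of Myc, which rose 1.80-fold (adjusted p = 0.0408, and 0.0802 under median ratio scaling).

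The second was Gapdh, a glycolytic enzyme that every cell uses, at 0, 0.0791 and 0 FPKM in untreated tumors and at 16.7, 2.11 and 5.82 FPKM in DMSO tumors. Such levels are near 0 for a gene of this kind, while Aldoa, another enzyme of the pathway, was at 2082, 1437 and 1305 FPKM and 3367, 1606 and 1561 FPKM. The Gapdh row is therefore given as listed and no fold is drawn from it. It shows that a value at or near 0 in these files need not mean that a gene was silent.

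**Figure D2:**
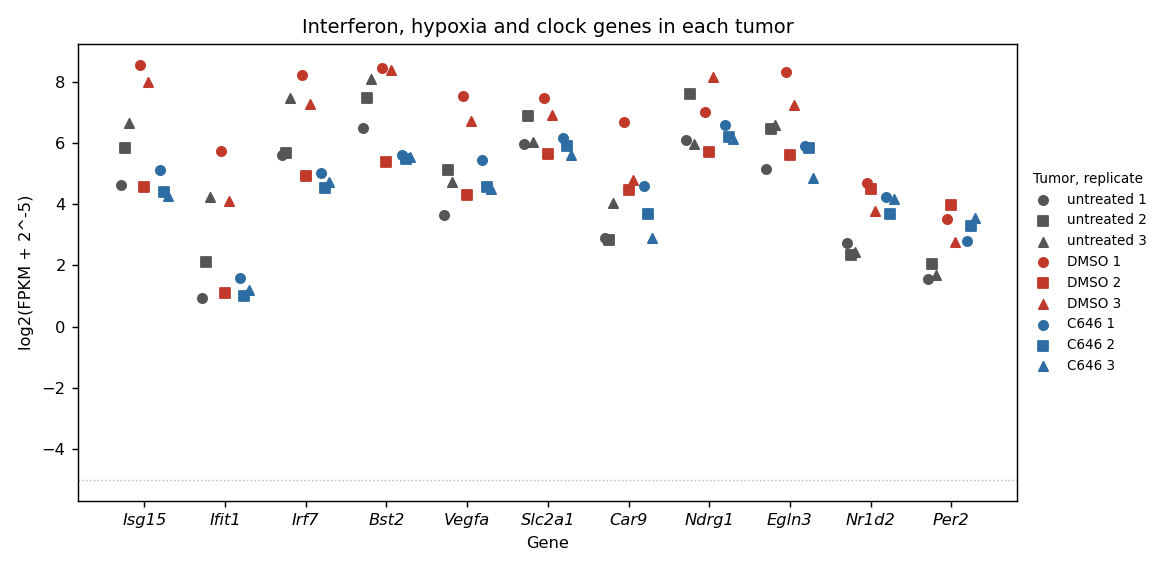
Level of interferon (Isg15, Ifit1, Irf7, Bst2), hypoxia (Vegfa, Slc2a1, Car9, Ndrg1, Egln3) and clock genes (Nr1d2, Per2) in each tumor, as log2(FPKM + 0.03125), with color for the group and marker shape for the replicate; the dotted line marks 0 FPKM. DMSO tumors 1 and 3 lie above DMSO tumor 2 for the interferon and hypoxia genes, while Nr1d2 and Per2 lie above all untreated tumors in all 3 DMSO tumors. The C646 tumors are drawn beside these groups.

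Most clock genes had differences above 0, and few passed the threshold. The circadian clock is a loop in which Clock and its partner drive the Per and Cry repressors, and its targets cycle over the day in most tissues. Of 18 genes tested 17 had a difference above 0, beside 60.1% of all genes, and the median difference was 0.74 (0.59 relative to all genes). Of these 18, 2 were higher and 1 lower, beside 7.52% and 2.78% of all genes. In 6 every DMSO tumor lay above every untreated tumor, a share near the 26.9% of all genes. Nr1d2, a repressor in the loop, was at 6.67, 4.99 and 5.34 FPKM in untreated tumors and at 25.97, 22.7 and 13.6 FPKM in DMSO tumors (difference 1.83, adjusted p = 0.0154). Per2, a core repressor, was at 2.91, 4.11 and 3.22 FPKM and 11.3, 15.6 and 6.82 FPKM (difference 1.65, adjusted p = 0.0309). Bhlhe41, which represses clock targets, went the other way, at 90.1, 56.9 and 75.1 FPKM and 25.3, 43.4 and 31.7 FPKM (difference -1.15, adjusted p = 0.0389). The hour at which tissue was taken is not given in the sources used here.

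Genes of stress and of steroid response gave few calls, to be read beside 7.52% higher and 2.78% lower over all genes tested. Fos, an immediate-early transcription factor, was at 15.5, 19.8 and 25.2 FPKM in untreated tumors and at 39.7, 44.9 and 67.5 FPKM in DMSO tumors, and rose 2.52-fold (adjusted p = 0.0315, and 0.0510 under median ratio scaling), the single call of 26 such genes. Hsp90aa1, an inducible chaperone, was at 83.4, 126 and 83.8 FPKM and 191, 190.4 and 232 FPKM (adjusted p = 0.0300, and 0.0521 under that scaling), and the other call of 15 heat shock genes was its co-chaperone Chordc1. Ddit3, a factor of the unfolded protein response, rose 2.28-fold (adjusted p = 0.0334) among 27 genes with no other call. Pdk4, the kinase that closes the entry of glucose carbon into the citric acid cycle and is rich in muscle, was at 1.90, 5.87 and 4.42 FPKM and 0.0520, 0.0491 and 0.551 FPKM and fell 18.7-fold (adjusted p = 0.0313). The muscle lists moved the same way, and their part in this difference was not tested. Pdk4 stood on a list of 18 glucocorticoid-induced genes whose other call was Map3k6, also lower. Proliferation genes did not separate the groups, with 28 tested, no call and a median difference of 0.10 (-0.05 relative to all genes).

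Among enzymes that add or remove histone acetylation, and its readers, a few genes rose. The list pooled acetyltransferases, deacetylases, readers and Med1, and no deacetylase was called. Of 21 tested 4 were higher and none lower, beside 7.52% and 2.78% of all genes. In 13 every DMSO tumor lay above every untreated tumor, beside 26.9% of all genes. In 17 the difference was above 0, beside 60.1% of all genes, and the median difference was 0.51 (0.36 relative to all genes). Ep300, the acetyltransferase p300 that C646 is used to inhibit, was at 3.06, 3.74 and 3.19 FPKM in untreated tumors, at 10.1, 9.08 and 5.84 FPKM in DMSO tumors and at 11.3, 9.16 and 10.3 FPKM in C646 tumors. Its difference of 1.28 ± 0.26 between DMSO and untreated tumors was 1.13 relative to all genes (adjusted p = 0.0314, and 0.0522 under median ratio scaling). Kat6b, an acetyltransferase of another family, was at 1.94, 1.75 and 1.999 FPKM and 6.91, 6.78 and 4.59 FPKM (adjusted p = 0.0157), and kept its call under that scaling (0.0241). Brd2, a reader of acetylated histones, rose 1.53-fold (adjusted p = 0.0456), a call that the scaling removed (0.0987). Under median ratio scaling 1 gene of the list was higher and 1 lower. Of 17 Wnt, Hedgehog and Notch genes tested 2 were higher and none lower, and 1 was higher under median ratio scaling. Mean levels of that list overlapped between the groups and were highest in DMSO tumor 3. Notch3, a Notch receptor of mural cells, rose 3.83-fold (adjusted p = 0.0154) and Ptch1, the Hedgehog receptor and target, 2.95-fold (adjusted p = 0.0352).

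Genes of the ribosome and of respiration had medians below 0, but their calls were near the share over all genes. Of 41 cytosolic ribosomal protein genes 2 were lower and none higher, beside 2.78% and 7.52% of all genes. In 5 every DMSO tumor lay below every untreated tumor, beside 10.8% of all genes. A difference above 0 was seen in 3 of the 41, beside 60.1% of all genes, and the median difference was -0.47 (-0.62 relative to all genes). Rps3 was at 2095, 2094 and 1732 FPKM in untreated tumors and at 459, 655 and 867 FPKM in DMSO tumors (adjusted p = 0.0224). The share of FPKM in these genes was 13.6, 12.9 and 11.8% in the untreated and 7.81, 9.88 and 13.04% in the DMSO tumors, so DMSO tumor 3 lay within the untreated range. Of 39 oxidative phosphorylation genes 1 was lower, Ndufb9 of respiratory complex I, a share near the 2.78% of all genes. In 10 of the 39 every DMSO tumor lay below every untreated tumor, and the median difference was -0.45 (-0.60 relative to all genes). Ribosomal protein genes have many near-identical copies and host small RNAs, as Rps3 does, so single rows are uncertain.

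The remaining lists gave few calls or none, to be read beside 7.52% higher and 2.78% lower over all genes. Cp, the copper carrier ceruloplasmin, was at 536, 338 and 399.7 FPKM in untreated tumors and at 139, 199 and 191 FPKM in DMSO tumors, and was the single lower gene of 16 acute phase genes (adjusted p = 0.0284). Gas5, a host gene of small nucleolar RNAs, rose 1.80-fold (adjusted p = 0.0405, and 0.0653 under median ratio scaling). None passed the threshold among 15 endothelial, 10 peripheral nerve, 6 neutrophil, 9 antigen presentation, 14 chemokine and cytokine, 15 mesenchymal transition and 13 oxidative response genes. The median difference was -0.29 for the endothelial and 0.38 for the nerve list.

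**Figure D3:**
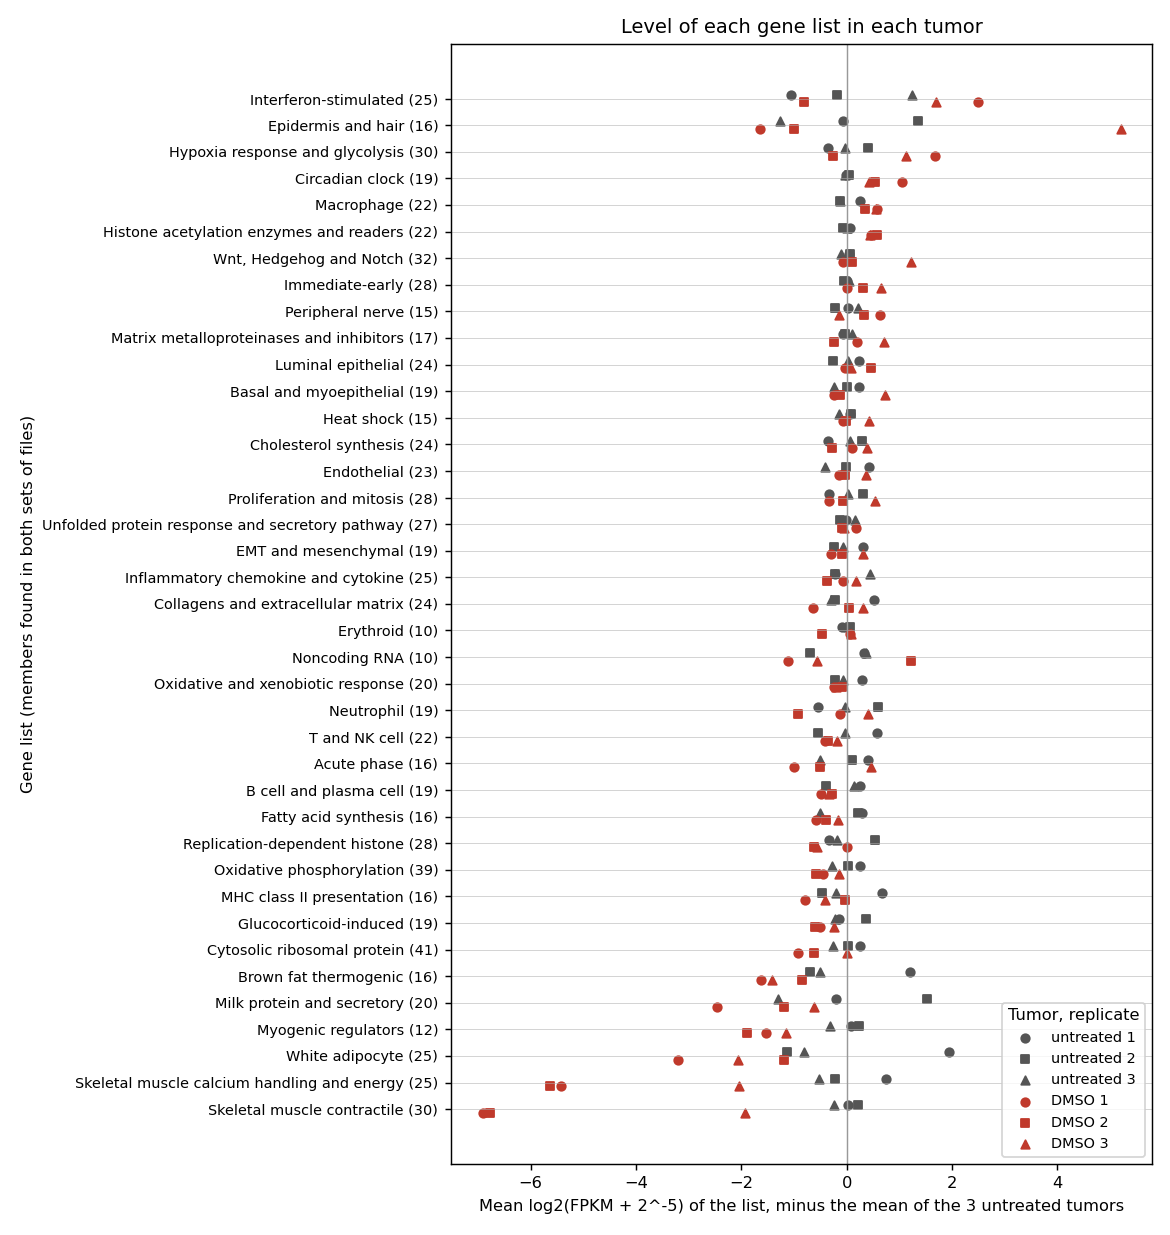
Mean log2(FPKM + 0.03125) of each gene list with at least 10 members found, in each of the 6 tumors, minus the mean of the 3 untreated tumors; color marks the group, marker shape the replicate, and the number of members stands in parentheses. The muscle lists lie furthest below 0 in DMSO tumors 1 and 2, the epidermal list is high in DMSO tumor 3 alone, and the interferon and hypoxia lists overlap between the groups.

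Among the largest called differences were genes with values at or near 0 in a whole set of files. Hbq1b, a globin gene at chromosome 11, 32286965 to 32287784 (GRCm38) that overlaps no other annotated gene, was at 137, 245 and 108 FPKM in untreated tumors and listed at 0 in all 3 DMSO tumors. It was also listed at 0 in all C646 tumors, beside a mean of 143 FPKM in normal gland. Ypel4, at chromosome 2, 84734058 to 84738655, was at 85.2, 41.8 and 27.3 FPKM in untreated tumors, listed at 0 in the DMSO tumors and at 0.388, 0.583 and 0.389 FPKM in the C646 tumors. Camk2b, a calmodulin-dependent kinase at chromosome 11, 5969644 to 6066362, was at 36.4, 44.05 and 227 FPKM and 0.106, 0.0481 and 0.252 FPKM, and the replication-dependent histone Hist1h2bj at 105, 45.8 and 63.5 FPKM and 1.90, 0.874 and 0.774 FPKM. In both genes the C646 tumors were as low as the DMSO tumors, at 0.334, 0.172 and 0.680 FPKM and 0, 0.758 and 1.03 FPKM. These differences followed the set of files, which cannot be told apart from treatment here. Also among the 10 largest falls were Mir682, Snord35a, Snhg9 and Gm21119, with untreated means of 112, 38.7, 19.8 and 11.0 FPKM. They were listed at 0 in all DMSO and C646 tumors. The noncoding transcript 4930447K03Rik fell from a mean of 35.7 FPKM to 0.0648 FPKM and was listed at 0 in the C646 tumors.

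The opposite pattern was seen in Gm15350, at chromosome 8, 12828335 to 12833865 antisense to Atp11a, which was listed at 0 in all 6 normal and untreated tumor samples. It was at 33.5, 38.3 and 48.3 FPKM in the DMSO tumors and at 55.00, 33.8 and 41.96 FPKM in the C646 tumors. The libraries did not keep the strand, so its reads cannot be told from those of Atp11a. Some genes, such as Bmp6, Pde4d and Dis3l2, rose without being near 0 in the whole set of normal and untreated files. Bmp6, a secreted bone morphogenetic protein at chromosome 13, 38345107 to 38500302, was at 0.261, 0.210 and 0.249 FPKM in untreated tumors and at 29.3, 22.1 and 33.98 FPKM in DMSO tumors (difference 6.70, adjusted p = 7.81e-05). Part of Bmp6 overlaps Txndc5 on the other strand. Pde4d, a phosphodiesterase that breaks down cyclic AMP, was at 0.915, 1.06 and 1.35 FPKM and 12.8, 19.2 and 21.5 FPKM, and Dis3l2, an exonuclease for RNA, at 11.2, 8.23 and 8.09 FPKM and 96.7, 128 and 155 FPKM. The C646 tumors were at 36.4, 31.7 and 30.8 FPKM for Bmp6, 14.6, 15.7 and 15.5 FPKM for Pde4d and 107, 107 and 113 FPKM for Dis3l2. In normal gland the mean was 3.69 FPKM for Bmp6, 4.87 FPKM for Pde4d and 5.93 FPKM for Dis3l2, so Bmp6 and Pde4d were higher there than in untreated tumors of the same set of files. Of the other genes among the 10 largest rises, Gm11696 rose 40.9-fold, Azin2 13.9-fold and the zinc finger genes Zfp493, Zfp418 and Zfp560 11.3-fold to 14.1-fold. In each of these, and in Bmp6, Pde4d and Dis3l2, every DMSO and C646 tumor lay above every normal and untreated sample. All these differences thus followed the set of files, which cannot be told apart from treatment here. Means of Zfp493, Zfp418 and Zfp560 were 0.512, 0.770 and 1.79 FPKM in normal gland. In C646 tumors they were 4.63, 11.4 and 10.7 FPKM.

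Calls also followed the length and base composition of the transcripts. Among the tested genes 94.4% could be matched to GENCODE transcripts. In the fifth with the lowest GC content 17.3% of genes were higher in DMSO tumors and 1.97% lower, against 2.68% and 2.86% in the fifth with the highest. In the fifth with the longest transcripts 13.6% were higher and 1.56% lower, against 5.26% and 3.88% in the fifth with the shortest. Centring the log2 levels of each tumor within bins of GC content and length, and fitting again, left 244 higher (2.18%) and 371 lower genes (3.32%) of 11190. Of the 48 muscle genes 13 stayed lower after that centring, and their median difference was -5.47. Among the higher genes, Lyz1, Csf1r, Nr1d2, Kat6b and Notch3 stayed past the threshold, while Ep300, Per2, Cd163 and Mmp12 did not.

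**Figure D4:**
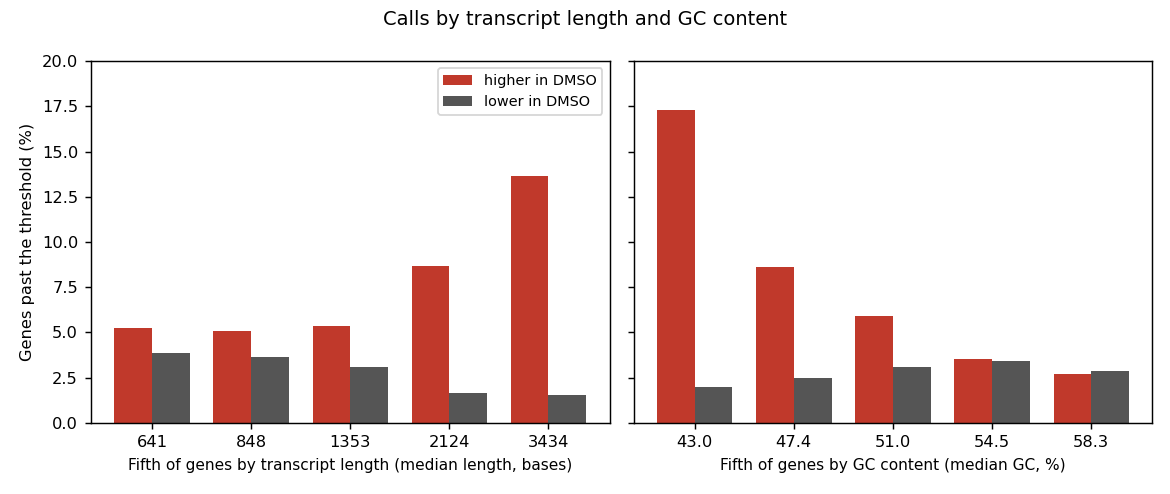
Share of tested genes past the threshold, in percent, in 5 equal bins of genes by transcript length in bases (left) and by GC content in percent (right); red bars are genes higher and grey bars genes lower in DMSO tumors. The share of higher genes falls from 17.3% to 2.68% with rising GC content and is 5.26% for the shortest and 13.6% for the longest transcripts.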

How the data were processed

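RNA was measured in whole tissue by poly-A RNA-seq, with non-directional libraries made from 20 mg of tissue. Per the methods and the labels, the authors removed adapters (cutadapt), aligned to mm10 (TopHat 2.1.1) and obtained FPKM from Cufflinks 2.2.1. For every sample the authors deposited FPKM by gene name. Such values are not counts, so no count test was used. The methods give a planned depth, but the files hold no read total of a sample. The steps between low values gave depth estimates of 1.54 for untreated tumor 3 over 1, and of 1.07 and 1.30 for DMSO tumors 2 and 3 over 1, and no clear ratio between the sets of files. The gene annotation is not given in the sources used here. The untreated tumor files had 1837 rows without a name, with 3.90% to 4.43% of the FPKM sum, and these were dropped. Repeated names were summed.

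The deposited FPKM were put on the log2(FPKM + 0.03125) scale, and genes that reached 1 FPKM in 3 or more of the 6 tumors entered a 2-sided limma fit (version 3.58.1, R 4.3.3, trend in the variance) with Benjamini-Hochberg adjustment at 0.05. The fitted difference of a gene near 0 FPKM depends on this constant. For single genes an exact permutation test of 3 against 3 cannot go below p = 0.1. In a simulation, values of each gene were drawn independently from a normal distribution with its own mean and spread. The simulation held no floor at 0 FPKM, no outlying tumor and no effect of file set, GC content or length. On such data limma made 0 false calls with no changed genes, which gives no false-call rate for the real tumors. In a single further fit, sets of 200 genes were shifted by 1, 2 and 3 log2 units at the same time. Of these sets 42.5%, 79% and 91% were called in the right direction, beside 24 false calls in that fit.

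Members and gene lists were chosen with earlier results of these data known. Genes were named by rule: the 10 largest calls in each direction with no overlap and a mean of at least 5 FPKM in the higher group, and in each list the 3 most abundant members and the 2 largest calls in each direction. Other list members with values were picked after their values were seen. Positions come from GENCODE M21 (GRCm38, which is mm10) and promoters from RefSeq. Other steps used Python 3.11.15, pandas 2.3.3 and matplotlib 3.10.9. Alternatives were other constants, filters and scalings, fits with other samples, and each replicate left out.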

Additional observations from a re-analysis of the deposited data

How the results depend on the processing

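The counts of calls moved with the scaling, the filter and the samples. Against 892 higher and 330 lower genes, median ratio scaling gave 357 higher, quantile normalization 391 higher, no filter on low values 546 higher, and a minimum log2 difference of 1 left 518 higher. Fitting all 9 tumors together gave 2039 higher and 692 lower. Centring by GC content and length, chosen after seeing the data, gave 244 higher. Leaving out 1 tumor gave 73 to 1152 higher and 56 to 507 lower genes, the lowest higher count without DMSO tumor 2 (73), the lowest lower count without untreated tumor 3 (56), and the highest of both without DMSO tumor 3. Without DMSO tumor 1 the counts were 160 and 94, and without untreated tumors 1 and 2 they were 153 and 65, and 268 and 91. Each such fit compares 3 tumors with 2. The cause was not tested.

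Replicate numbers did not pair the tumors, since deviations of same-numbered tumors correlated at -0.18, -0.18 and -0.35. A replicate block left 23 higher and 26 lower genes.

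Of 50 named genes past the threshold, 41 stayed past it under median ratio scaling, 42 under quantile normalization, 38 after the GC and length centring, 50 with a constant of 1 and 47 without DMSO tumor 3, but 22 to 24 when any other tumor was left out. None of these genes changed direction under an alternative in which it was tested, though 43 of the 50 were tested at a mean of at least 5 FPKM, 37 among names that occur once, and 44 without names at 0 in a whole set of files. The files hold no read totals, so no limit for a value of 0 can be given.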

Other observations

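Gene families seen in the ranked list, and chosen after their values were seen, are given here as counts with no test. Over all genes tested, 7.52% were higher and 2.78% lower, and 2.18% were higher after centring by GC content and length. Of 258 Zfp zinc finger genes tested 35 were higher and 1 lower in DMSO tumors, and 13 were higher after that centring. Of 16 Kdm histone demethylase genes 6 were higher and none lower, and 5 were higher after that centring. Of 25 Kif kinesin motor genes 7 were higher, and 3 after it. Of 47 Mrpl genes for the large subunit of the mitochondrial ribosome 6 were lower and 1 higher.

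Names found in 1 set of files could not be compared. There were 403 in the normal and untreated tumor files and 390 in the DMSO and C646 files, and 238 and 240 of them reached 1 FPKM in all 3 untreated or all 3 DMSO tumors. Several were well known genes whose row had been joined with another name. Summed over its rows, Srebf1, a regulator of lipid synthesis, was at 476, 202 and 271 FPKM in untreated tumors and at 341, 620.4 and 351 FPKM in DMSO tumors. Acly, which makes acetyl-CoA for lipid synthesis, was at 135, 224 and 75.5 FPKM and 86.9, 94.3 and 151 FPKM. The basal keratin rows of Krt14 and Krt16 summed to 113, 126 and 75.9 FPKM and 30.7, 71.6 and 382 FPKM, again highest in DMSO tumor 3. The class I antigen rows of H2-K1 and H2-K2 summed to 764, 515 and 803 FPKM and 1619.8, 421 and 671 FPKM, highest in DMSO tumor 1, which also had the highest level of the interferon list.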
